A study of Mus musculus with 6 samples.

Results

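The miR-23/27/24 clusters are a pair of paralogous miRNA clusters, each made of a miR-23, a miR-27 and a miR-24 hairpin. Their members were chosen by name, as 7 mature miRNAs of these hairpins. Of the 7, 6 were found among the 598 miRNA names of the count table, and miR-24-2-5p was not analysed here. Where a name had more than 1 entry, that with the highest total was kept.

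RAW264.7 cells, an established mouse macrophage line with a wild type genotype, were the source of all 6 libraries. For M0-exo (3 samples), cells were grown for 24 h with no cytokine. For M2-exo (3 samples), IL-4 and IL-13 were present for those 24 h, each at 20 ng/mL. In both groups the cells then went into medium without serum, exosomes were pelleted from the supernatant by ultracentrifugation, and their small RNA was sequenced. Every library was labelled as batch 1. No source used here says that the 3 samples of a group came from separate cultures. The spread behind the p-values is thus that between these samples, which may be technical. In RNA from a bulk vesicle preparation, fewer vesicles that carry a miRNA and less of it per vesicle cannot be told apart.

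A miRNA hairpin is cut from a longer transcript by Drosha and opened by Dicer, and either arm, named 5p or 3p, can be loaded onto Argonaute. The loaded strand finds its target mRNAs mainly through its seed, so paralogs with the same seed are predicted to share most targets. The miR-23a/27a/24-2 cluster is well studied in haematopoietic cells, where it acts in lineage choice and in macrophage polarization.

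The mature sequences below, as the deposited table gives them, show why paralogs were compared in pairs. Bases 2 to 8, the seed, are in capitals. The first pair shares the seed UCACAUU, the next pair shares UCACAGU, and miR-24-3p has its own.

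mmu-miR-23a-3p: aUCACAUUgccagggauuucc
mmu-miR-23b-3p: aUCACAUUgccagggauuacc
mmu-miR-27a-3p: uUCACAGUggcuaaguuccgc
mmu-miR-27b-3p: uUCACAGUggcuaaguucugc
mmu-miR-24-3p: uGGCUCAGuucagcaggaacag

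Positions were counted from 1 at the 5′ end of the a-cluster sequence. miR-23a-3p and miR-23b-3p were identical at 20 of 21 bases and differed by U19A. miR-27a-3p and miR-27b-3p were also identical at 20 of 21 bases, and differed by C19U. Each pair was thus told apart by 1 base outside the seed, so counts within a pair are uncertain to the extent that reads with an error or a trimmed end at base 19 were assigned to the wrong paralog. The share of such reads was not tested.

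The opposite arms are less alike. They are shown because the comparison of arms below turns on them.

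mmu-miR-27a-5p: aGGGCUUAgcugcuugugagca
mmu-miR-27b-5p: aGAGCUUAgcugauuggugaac
mmu-miR-23a-5p: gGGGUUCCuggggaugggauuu
mmu-miR-23b-5p: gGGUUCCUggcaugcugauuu

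miR-27a-5p and miR-27b-5p were identical at 14 of 22 bases, and G3A falls within the seed. miR-23b-5p aligned best with miR-23a-5p at an offset of 1 base, where 15 of its 21 bases were identical, so their seeds differ. Of these 4, only miR-27a-5p belongs to the members. The other arms were added as the partners of the members in the same hairpins, and of 4 such arms 3 were found, while miR-24-1-5p was not analysed here.

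The hairpins of the a-cluster lie within 404 bases on the plus strand of chromosome 8, and those of the b-cluster within 792 bases on the plus strand of chromosome 13. Positions are those of RefSeq on GRCm38.p6, since the table has no coordinates and the submitters' processing notes name mm39. Mir23a (chr8:84208518-84208592), Mir27a (chr8:84208672-84208758) and Mir24-2 (chr8:84208815-84208921) lie in that order, and only the last of them touches another gene of GENCODE M21, with 2 bases in an exon of the lincRNA Gm26532. Mir23b (chr13:63300484-63300557), Mir27b (chr13:63300712-63300784) and Mir24-1 (chr13:63301208-63301275) lie in intron 15 of the protein-coding transcript 2010111I01Rik-201, on the same strand. They also lie in intron 13 of Fancc-218, on the opposite strand. In other 2010111I01Rik transcripts, annotated as subject to nonsense-mediated decay, all 73 bases of Mir27b and all 68 of Mir24-1 fall in an exon. Mir24-1 also overlaps exons of 3 transcripts of that gene by 25, 21 and 3 bases. The hairpin sequences of the miR-23 and miR-27 genes, from RefSeq, follow with both arms in capitals.

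Mir23a: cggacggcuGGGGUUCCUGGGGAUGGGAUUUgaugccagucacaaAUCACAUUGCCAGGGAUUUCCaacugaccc
Mir23b: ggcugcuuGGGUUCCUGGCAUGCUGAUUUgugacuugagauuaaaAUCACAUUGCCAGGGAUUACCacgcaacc
Mir27a: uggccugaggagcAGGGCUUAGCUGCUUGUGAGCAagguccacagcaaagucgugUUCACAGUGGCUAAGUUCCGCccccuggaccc
Mir27b: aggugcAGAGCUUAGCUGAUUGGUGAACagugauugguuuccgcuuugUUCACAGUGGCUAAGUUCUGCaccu

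The mature miR-24-3p sequence occurs in both Mir24-2 and Mir24-1. The entries for these hairpins held the same counts in 5 libraries and 1970 against 1966 in M2-exo replicate 2. The a-cluster and b-cluster shares of miR-24-3p therefore cannot be told apart, and the entry with 13159 counts in all (Mir24-2) was used.

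Library totals were 1453348, 1155464 and 863194 counts in M0-exo replicates 1, 2 and 3 and 937317, 860204 and 969974 in M2-exo. The let-7 family and miR-98 took 74.9% to 77.9% of each. The 6 members summed to 7590, 6047 and 4227 counts for M0-exo and 5259, 5123 and 5471 for M2-exo. These sums were 0.522%, 0.523% and 0.490% of the M0-exo libraries and 0.561%, 0.596% and 0.564% of the M2-exo libraries. The share of the members was higher in all M2-exo libraries than in any M0-exo library, with no scaling applied. Where 0 counts were seen, as many as 3 are possible, which is 1.92 to 3.60 CPM (counts per 1000000, scaled by TMM) for a single library and covers counting error only.

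The cells behind the exosomes were checked against miRNA markers. All 6 myeloid markers were found, with summed levels of 1839, 1413 and 1353 CPM for M0-exo and 1274, 1425 and 1559 CPM for M2-exo. The most abundant was miR-155-5p, a miRNA of activated macrophages, in each M0-exo library and miR-142a-3p in each M2-exo library. miR-155-5p was called lower in M2-exo (log2 fold change -1.04). The myeloid label thus had its markers in every library. Of these, miR-223-3p was at only 8.60 to 16.8 CPM for M0-exo and 32.0 to 48.0 CPM for M2-exo. Of the stromal markers 2 of 4 were found, with a summed level of 18.4 to 23.7 CPM for M0-exo and 31.2 to 74.3 CPM for M2-exo, most of it from miR-143-3p, which overlapped between the groups. The other, miR-199a-3p, was called higher from 1, 0 and 0 counts for M0-exo and 7, 7 and 19 for M2-exo. Without M2-exo replicate 3 the call was lost (unadjusted p of 0.109 from edgeR). The log2 fold change, which rests on M0-exo counts at or near 0, was 5.14 with that replicate and 4.58 without it. Of the epithelial markers 1 of 3 was found, miR-200c-3p, at 29.0 to 63.1 CPM over the 6 libraries.

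The question of the comparison was which miRNAs differ between exosomes of unstimulated and of IL-4 and IL-13 stimulated macrophages. Of the 5 3p members, miR-24-3p and miR-23a-3p were higher in M2-exo by adjusted p and miR-27b-3p was called higher, while miR-23b-3p and miR-27a-3p met neither threshold. The fold changes of the 5 lay between 1.22 and 1.45 and depended on scaling. The 5p arm of mir-23a was lower, at 0.472 of its M0-exo level. Levels are given as CPM and differences as log2 fold changes of M2-exo over M0-exo, from edgeR's quasi-likelihood test on all 598 miRNAs. The spread behind edgeR's p-values, standard errors and intervals was shared over miRNAs. They therefore do not reflect the scatter of each single miRNA between samples. A call required a log2 fold change at or beyond 0.5 in either direction together with an unadjusted p below 0.05. Counts with a Benjamini-Hochberg adjusted p below 0.05 are given beside it.

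miR-24-3p was the most abundant member, at 1848, 1835 and 1826 CPM in replicates 1, 2 and 3 of M0-exo and at 2363, 2361 and 2615 CPM in those of M2-exo. The M0-exo libraries lay close together, all below the M2-exo libraries, and M2-exo replicate 3 was highest. These levels came from 2887, 2298 and 1698 counts for M0-exo and 2019, 1970 and 2287 for M2-exo. The level was 1836 ± 11.4 CPM for M0-exo and 2447 ± 146 CPM for M2-exo (SD, n = 3 each). The log2 fold change was 0.41 (standard error 0.11), with an adjusted p of 0.00268 from edgeR. It was short of the fold threshold, so miR-24-3p was not called.

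miR-23a-3p stood at 1706, 1647 and 1510 CPM in replicates 1, 2 and 3 of M0-exo and at 2123, 2164 and 2017 CPM in those of M2-exo. The ranges did not overlap, and the lowest M2-exo library (replicate 3) was above the highest M0-exo library (replicate 1). These levels came from 2664, 2062 and 1404 counts for M0-exo and 1814, 1805 and 1764 for M2-exo. The level was 1621 ± 101 CPM for M0-exo and 2101 ± 75.7 CPM for M2-exo (SD, n = 3 each). The log2 fold change was 0.37 (standard error 0.11), below the fold threshold, with an adjusted p of 0.0127 from edgeR. Without M0-exo replicate 3 the adjusted p was 0.151, without M2-exo replicate 1 it was 0.0717, and without M2-exo replicate 2 it was 0.116, over a range of 0.00162 to 0.533 in 16 alternatives.

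miR-23b-3p, its paralog, stood at 914, 964 and 884 CPM in replicates 1, 2 and 3 of M0-exo and at 1157, 1117 and 1087 CPM in those of M2-exo. Here too each M2-exo library was above each M0-exo library. These levels came from 1428, 1207 and 822 counts for M0-exo and 988, 932 and 951 for M2-exo. The level was 921 ± 40.4 CPM for M0-exo and 1120 ± 34.7 CPM for M2-exo (SD, n = 3 each), and the log2 fold change was 0.28 (standard error 0.12). It was the smallest difference among the 6 members, and the adjusted p of 0.186 from edgeR missed 0.05.

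miR-27a-3p stood at 216, 205 and 182 CPM in replicates 1, 2 and 3 of M0-exo and at 317, 251 and 276 CPM in those of M2-exo. All M2-exo libraries were above all M0-exo libraries, with M2-exo replicate 1 highest. These levels came from 337, 257 and 169 counts for M0-exo and 271, 209 and 241 for M2-exo. The log2 fold change was 0.48 (standard error 0.19), just under the fold threshold, and the adjusted p was 0.0954 from edgeR. Without M0-exo replicate 1 it was 0.54 and without M2-exo replicate 2 it was 0.55, and in both cases miR-27a-3p was called.

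miR-27b-3p stood at 146, 143 and 96.8 CPM in replicates 1, 2 and 3 of M0-exo and at 151, 180 and 230 CPM in those of M2-exo. The ranges were separate by a narrow gap, since M2-exo replicate 1 lay just above M0-exo replicate 1. These levels came from 228, 179 and 90 counts for M0-exo and 129, 150 and 201 for M2-exo. The log2 fold change was 0.54 (standard error 0.22), with an unadjusted p of 0.0160 and an adjusted p of 0.137, both from edgeR. It was the only member past the threshold for a call. The call rested on single libraries: without M0-exo replicate 3 the log2 fold change was 0.37 (unadjusted p of 0.122 from edgeR), and without M2-exo replicate 3 it was 0.36 (0.169).

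miR-27a-5p, the only 5p arm among the members, stood at 29.5, 35.1 and 47.3 CPM in replicates 1, 2 and 3 of M0-exo and at 44.5, 68.3 and 30.9 CPM in those of M2-exo. The groups overlapped, with M2-exo replicate 2 highest and M2-exo replicate 3 near the lowest M0-exo library. These levels came from 46, 44 and 44 counts for M0-exo and 38, 57 and 27 for M2-exo. The log2 fold change was 0.37 (95% interval -0.47 to 1.20), so no difference was detectable at this depth (adjusted p of 0.646 from edgeR). It was 0.03 without M2-exo replicate 2 and 0.60 without M2-exo replicate 3, so its size rested on single libraries.

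**Figure D1:**
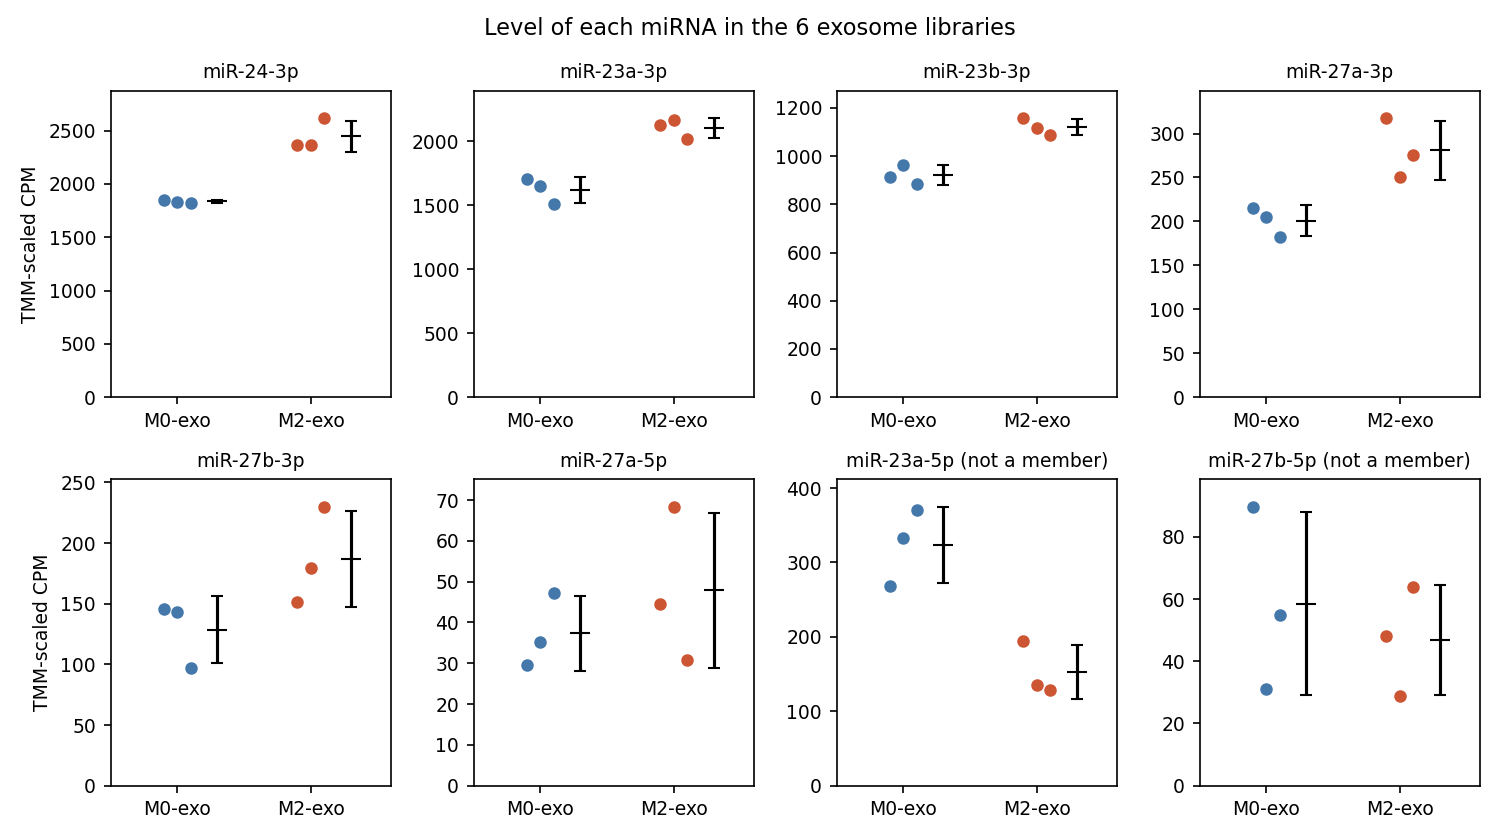
TMM-scaled CPM of the 6 members and of 2 opposite arms (vertical axis, from 0) in each M0-exo library (blue) and M2-exo library (orange), with the mean and SD of 3 libraries in black. For miR-24-3p the M0-exo libraries sit between 1826 and 1848 CPM and the M2-exo libraries between 2361 and 2615 CPM, whereas miR-23a-5p lies lower in every M2-exo library.

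Of the 6 members, 1 was called higher in M2-exo, beside 22 of 598 miRNAs (3.68%) over the whole table, where 38 (6.35%) were called lower. An adjusted p below 0.05 with a higher level was reached by 2 members, beside 25 of 598 (4.18%), while 28 (4.68%) reached it with a lower level. Ranges that did not overlap, with M2-exo higher, were found for 5 members, beside 57 of 598 (9.53%), and the same number of miRNAs (57, 9.53%) were separate with M2-exo lower. All 6 log2 fold changes were above 0, with a median of 0.39 against 0.03 over all 598 miRNAs. The shares over all 598 miRNAs, here and below, are not matched for depth. Of the 598, 241 had a mean of at least 10 counts, as did all 6 members. With those 241 fitted alone, 17 were called higher, 1 member among them. How many of the 241 had separate ranges was not computed. The member counts are small, and near-identical sequences and shared transcripts mean that the 6 values are not independent.

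**Figure D2:**
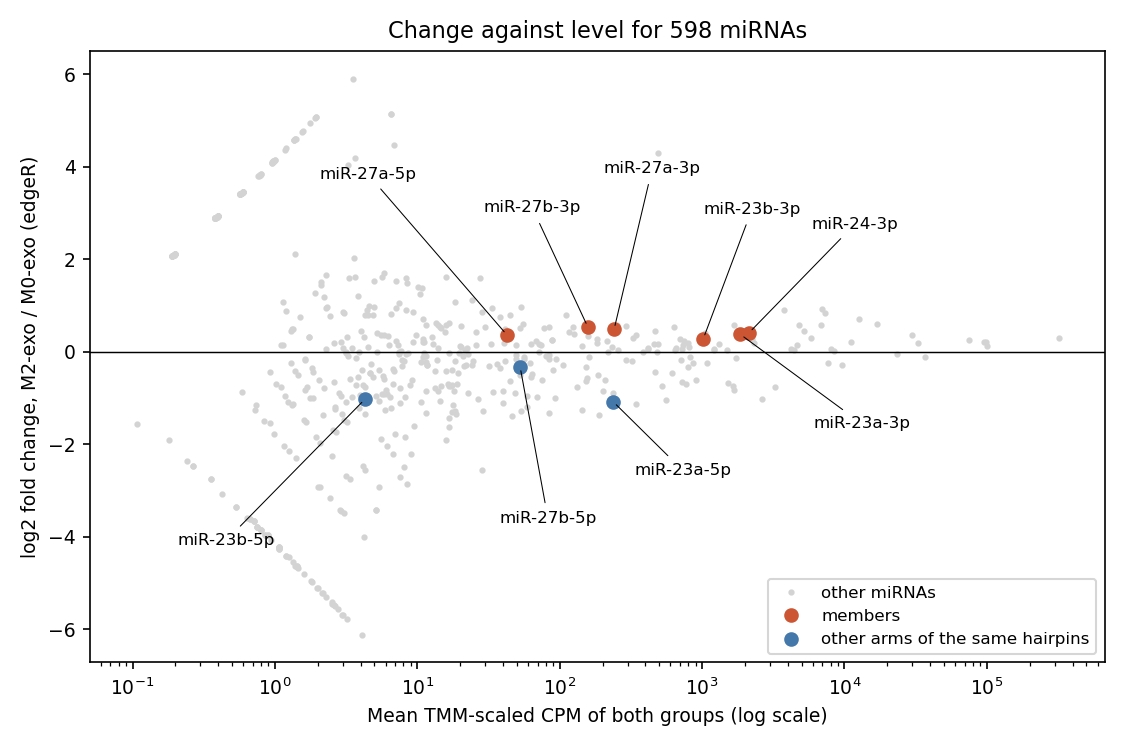
Log2 fold change of M2-exo over M0-exo from edgeR (vertical axis) against the mean CPM of both groups (horizontal axis, log scale) for 598 miRNAs, with members in orange and the other arms of their hairpins in blue. The members lie between 0.28 and 0.54, and miR-23a-5p lies at -1.08.

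Scaling set the size of these differences. With no scaling beyond the library total, the median difference over the 598 miRNAs moved by -0.20 on the log2 scale, from 0.03 to -0.18, and 10 miRNAs were then called higher and 63 lower. The log2 fold changes of the 3p members were then 0.19 for miR-24-3p, 0.16 for miR-23a-3p, 0.07 for miR-23b-3p, 0.26 for miR-27a-3p and 0.32 for miR-27b-3p. No member was called or had an adjusted p below 0.05 from edgeR in that setting (smallest unadjusted p of 0.0767), and the ranges of 2 members were separate. Measured from the median of all miRNAs, miR-24-3p stood at 0.39 with TMM and 0.37 without, and miR-23b-3p at 0.26 and 0.24. The direction of all 6 members was the same in 16 of 16 alternatives, in 1 of which each miR-23-3p and miR-27-3p pair was summed.

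**Figure D3:**
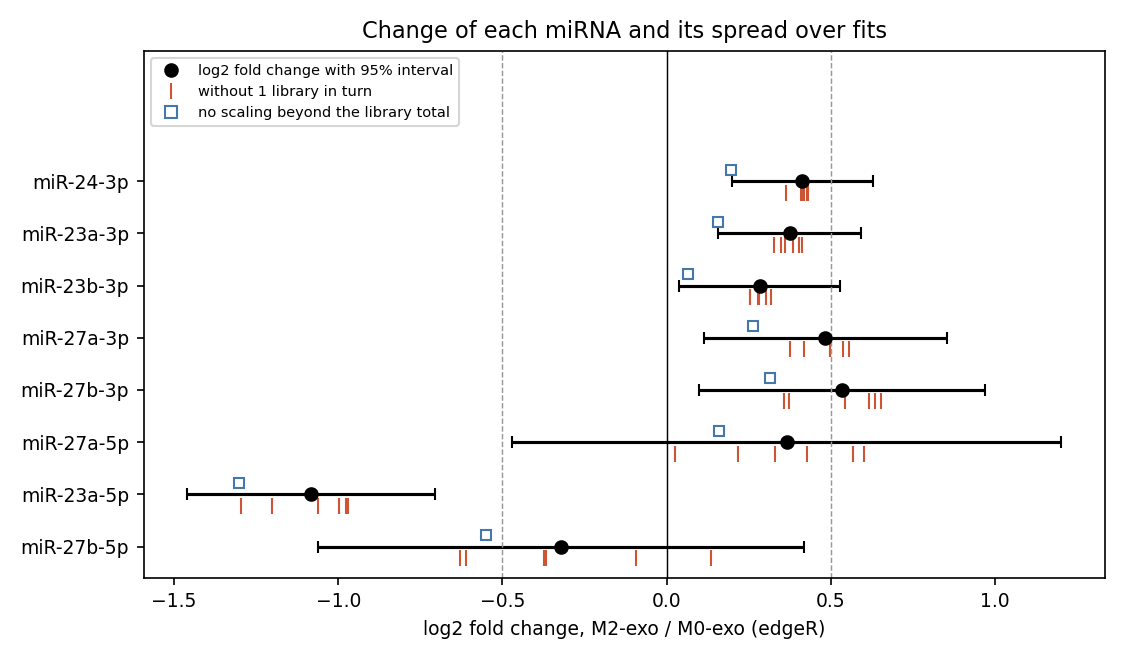
Log2 fold change of M2-exo over M0-exo from edgeR (horizontal axis) for each member and 2 opposite arms, with its 95% interval (black), the values without 1 library in turn (orange ticks) and the value with no scaling beyond the library total (blue squares). The dashed lines mark the fold threshold of 0.5 in either direction, and miR-27b-5p is the only one shown whose values without 1 library fall on both sides of 0.

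The order of the levels was the same in both groups: miR-24-3p, miR-23a-3p, miR-23b-3p, miR-27a-3p, miR-27b-3p and miR-27a-5p. Each of the 5 neighbouring pairs in this order had separate ranges in M0-exo and in M2-exo. Levels of different miRNAs also carry the efficiency with which each sequence enters a library, which was not tested. Within the a-cluster, miR-23a-3p had 8.08 ± 0.207 times the counts of miR-27a-3p for M0-exo and 7.55 ± 0.992 times for M2-exo (SD, n = 3 each). Within the b-cluster, miR-23b-3p had 7.38 ± 1.54 times the counts of miR-27b-3p for M0-exo and 6.20 ± 1.46 times for M2-exo (SD, n = 3 each). miR-23 thus exceeded miR-27 severalfold in both clusters and both groups, and the ranges of M0-exo and M2-exo overlapped.

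The a-cluster was compared with the b-cluster through the share of each paralog, which needs no scaling. miR-23a-3p made up 65.1%, 63.1% and 63.1% of the counts of miR-23a-3p and miR-23b-3p over the M0-exo libraries and 64.7%, 65.9% and 65.0% over the M2-exo libraries. The groups overlapped, since M0-exo replicate 1 lay within the range of M2-exo. The Wilson 95% intervals of single libraries spanned 61.0% to 67.7% in all. On the log2 scale, the ratio of miR-23a-3p to miR-23b-3p was 0.81 ± 0.07 for M0-exo and 0.91 ± 0.04 for M2-exo (SD, n = 3 each). The difference of 0.09 gave p = 0.3 in a two-sided exact permutation test.

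miR-27a-3p made up 59.6%, 58.9% and 65.3% of the counts of miR-27a-3p and miR-27b-3p over the M0-exo libraries and 67.8%, 58.2% and 54.5% over the M2-exo libraries. M2-exo held both the highest and the lowest of these shares. The log2 ratio was 0.66 ± 0.21 for M0-exo and 0.60 ± 0.42 for M2-exo (SD, n = 3 each), a difference of -0.06 with p = 0.8 in a two-sided exact permutation test. Without M0-exo replicate 3 this difference was 0.06, and without M2-exo replicate 3 it was 0.11, so its sign rested on single libraries. Summed over miR-23-3p and miR-27-3p, the a-cluster took 63.4% ± 0.933 of the counts for M0-exo and 64.6% ± 0.909 for M2-exo (SD, n = 3 each). No change in the a-cluster share between M0-exo and M2-exo was detectable in these libraries, and 3 samples against 3 cannot give an exact p below 0.1.

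The arms of the same hairpins were compared next. miR-23a-5p, the arm opposite miR-23a-3p, was counted 420, 416 and 344 times over the M0-exo libraries and 166, 113 and 112 times over the M2-exo libraries. In CPM these were 269, 332 and 370 for M0-exo and 194, 135 and 128 for M2-exo. All M2-exo libraries were below all M0-exo libraries. The level was 324 ± 51.0 CPM for M0-exo and 153 ± 36.3 CPM for M2-exo (SD, n = 3 each). The log2 fold change was -1.08 (standard error 0.19), called lower with an adjusted p of 6.89e-07 from edgeR. Of the 3 other arms it was the 1 called lower, beside 38 of 598 miRNAs (6.35%), and its difference was opposite in sign to that of miR-23a-3p from the same hairpin.

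The share of the 5p arm in all mir-23a counts was 13.6%, 16.8% and 19.7% over the M0-exo libraries and 8.38%, 5.89% and 5.97% over the M2-exo libraries. The lowest M0-exo share had a Wilson 95% interval of 12.5% to 14.9%, and the highest M2-exo share one of 7.24% to 9.69%, so these intervals, which cover counting error and not the spread between replicates, did not overlap. The mean share was 16.7% ± 3.03 for M0-exo and 6.75% ± 1.42 for M2-exo (SD, n = 3 each). The log2 ratio of 5p to 3p was -2.33 ± 0.32 for M0-exo and -3.80 ± 0.31 for M2-exo, a difference of -1.47, or 2.77-fold. The two-sided exact permutation test gave p = 0.1, the smallest that 20 arrangements allow, and 0.5 after Benjamini-Hochberg adjustment over the 5 ratios computed.

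For mir-27a no such difference was detectable. The 5p share was 12.0%, 14.6% and 20.7% over the M0-exo libraries and 12.3%, 21.4% and 10.1% over the M2-exo libraries, with overlapping groups. The log2 ratio of 5p to 3p was -2.44 ± 0.47 for M0-exo and -2.61 ± 0.66 for M2-exo (SD, n = 3 each), a difference of -0.17 with p = 0.8 in a two-sided exact permutation test. That difference was 0.09 without M0-exo replicate 3 and 0.10 without M2-exo replicate 3.

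For mir-27b the 5p share was 38.0%, 17.9% and 36.2% over the M0-exo libraries and 24.1%, 13.8% and 21.8% over the M2-exo libraries. M0-exo replicate 2 lay within the range of M2-exo, while the other M0-exo libraries were above it. The log2 ratio differed by -0.80, with p = 0.3 in a two-sided exact permutation test, and by -1.27 without M0-exo replicate 2 and -0.51 without M2-exo replicate 2. miR-27b-5p itself was counted 140, 39 and 51 times over the M0-exo libraries and 41, 24 and 56 times over the M2-exo libraries. For it the log2 fold change was -0.32 (95% interval -1.06 to 0.42), and 0.14 without M0-exo replicate 1. miR-23b-5p was counted 0, 15 and 5 times over the M0-exo libraries and 3, 4 and 0 times over the M2-exo libraries, at most 1.23% of all mir-23b counts in any library. This depth was too low to compare the arms of mir-23b, and its log2 fold change of -1.03 was 0.09 without M0-exo replicate 2.

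**Figure D4:**
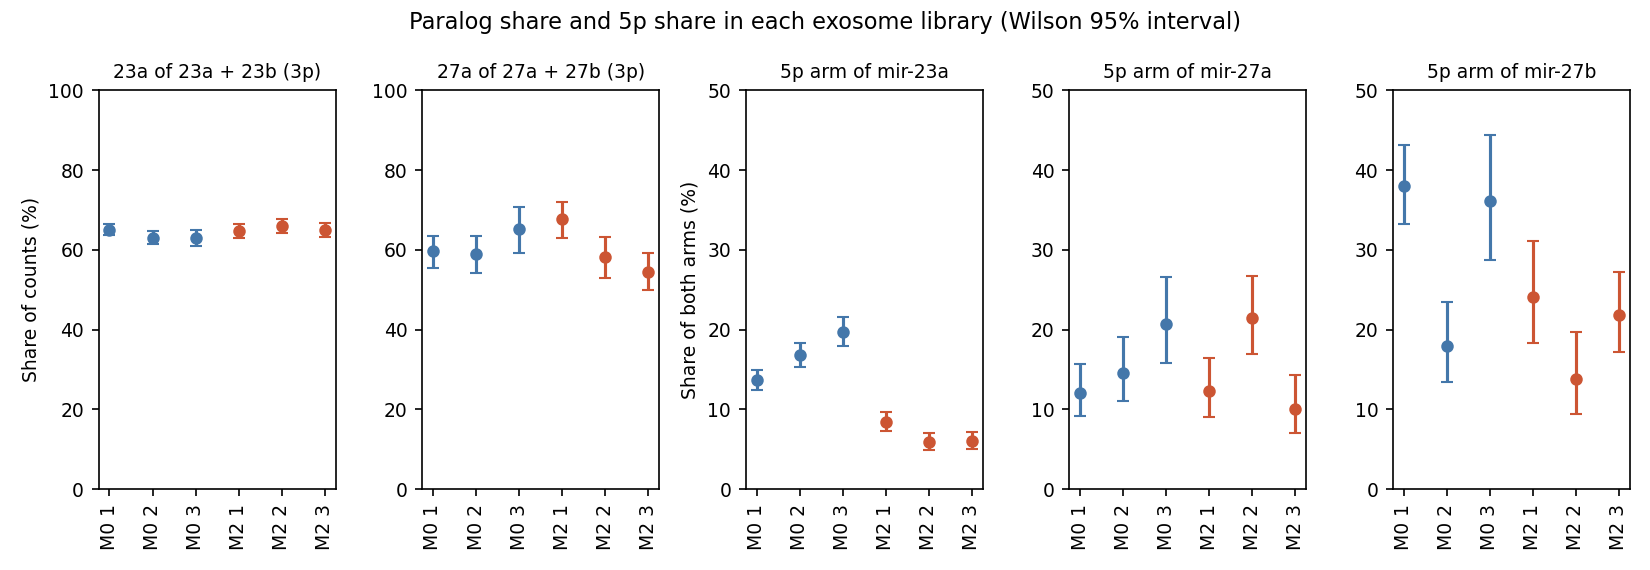
Share of the a-cluster paralog in each miR-23-3p and miR-27-3p pair, and share of the 5p arm in the counts of mir-23a, mir-27a and mir-27b (vertical axes, in %, from 0), in each M0-exo library (blue) and M2-exo library (orange) with Wilson 95% intervals. The paralog shares overlap between the groups, while the 5p share of mir-23a is 13.6% to 19.7% in M0-exo and 5.89% to 8.38% in M2-exo.

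The arm ratio was then fitted with limma over all 44 hairpins whose arms each had a mean of at least 10 counts, a comparison chosen after the values of mir-23a were seen. Among the 44 hairpins, mir-23a had the smallest p (unadjusted 0.00202), with a difference of -1.47 (95% interval -2.16 to -0.78). Its adjusted p of 0.0590 from limma missed 0.05. No hairpin reached an adjusted p below 0.05 in limma, and 10 of 44 (22.7%) had an unadjusted p below 0.05. The ranges of the groups were separate for 11 of 44 hairpins (25.0%), mir-23a among them. The differences were below 0 for 21 hairpins and above 0 for 23, with a median of 0.09. A shift of the arms as a whole was not tested. The adjusted p of mir-27b was 0.372 and that of mir-27a 0.774, both from limma. That mir-23a differed from mir-27a or mir-27b in this respect was not tested.

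**Figure D5:**
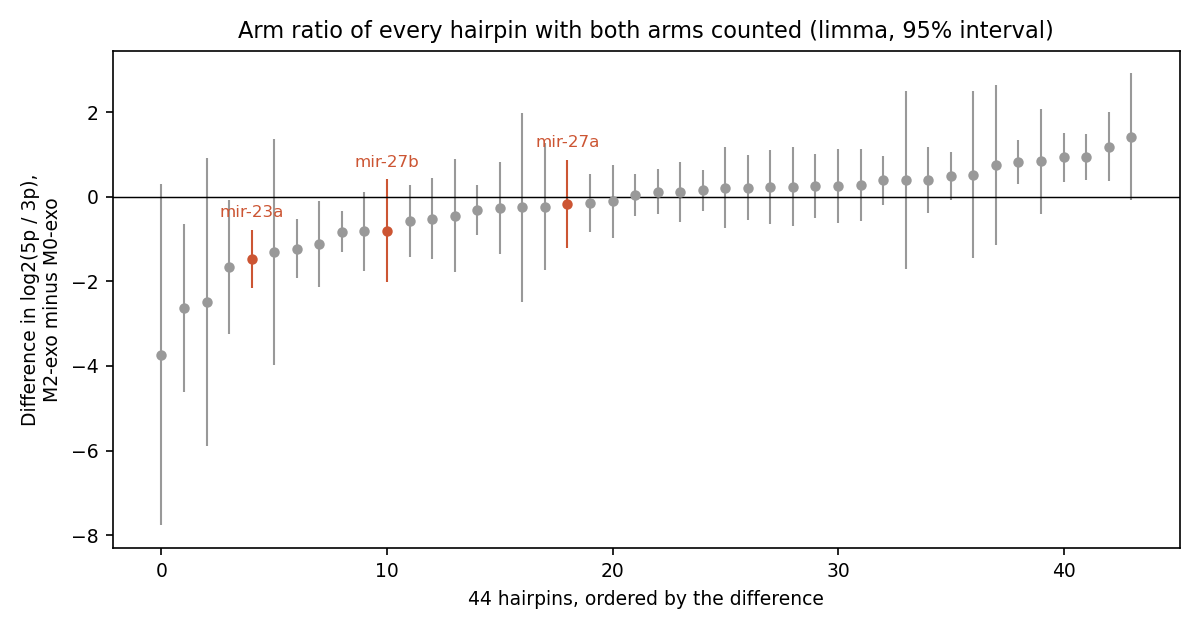
Difference in log2(5p / 3p) between M2-exo and M0-exo from limma (vertical axis) for each of 44 hairpins, ordered by that difference, with 95% intervals and with mir-23a, mir-27a and mir-27b in orange. mir-23a lies at -1.47 and its interval ends at -0.78, while the intervals of mir-27a and mir-27b hold 0.

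Base composition moved with the differences across the table. Over the 241 miRNAs with a mean of at least 10 counts, the log2 fold change had a Pearson r of -0.37 with GC content, across miRNAs, which are not independent replicates. GC content was 59.1% for miR-23a-5p, 54.5% for miR-24-3p and miR-27a-5p, and 52.4% for miR-27a-3p. It was 47.6% for miR-23a-3p, miR-23b-3p and miR-27b-3p. With an offset for GC content, chosen after seeing the data, the log2 fold change of miR-23a-5p was -0.90 (adjusted p of 2.74e-05 from edgeR) and the arm difference of mir-23a was -1.25 (adjusted p of 0.122 from limma). With that offset miR-27a-3p was called (0.52), and miR-27b-3p, at 0.495, was not. The log2 fold change of miR-24-3p was then 0.49, beside 0.41 without the offset, and that of miR-23a-3p 0.33, beside 0.37.

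The summed level of serum and blood cell miRNAs was higher in all M2-exo libraries than in any of M0-exo, and by far the highest in M2-exo replicate 3. Of 4 such markers 3 were found, with summed levels of 95.4, 157 and 145 CPM for M0-exo and 289, 199 and 2613 CPM for M2-exo. Of these, miR-122-5p, a liver miRNA, stood at 40.3, 47.1 and 54.8 CPM in replicates 1, 2 and 3 of M0-exo and at 160, 128 and 2497 CPM in those of M2-exo. It was called higher (log2 fold change 4.30), and without M2-exo replicate 3 it was still called, at 1.61 (3.05-fold), so most of the size came from that library. The other markers found, miR-486a-5p and miR-451a, overlapped between the groups. The members summed to 6156, 6141 and 6256 CPM in the M2-exo libraries, and miR-24-3p and miR-27b-3p were each highest in replicate 3. Without that replicate the log2 fold change was 0.36 for miR-24-3p, 0.40 for miR-23a-3p and 0.36 for miR-27b-3p, which was then not called. Of the IL-4 linked markers 2 of 3 were found. miR-378a-3p had 298 ± 37.4 CPM for M0-exo and 384 ± 46.5 CPM for M2-exo (SD, n = 3 each), a log2 fold change of 0.36 with an adjusted p of 0.242 from edgeR. miR-511-3p was at 0 counts throughout M0-exo and at 8, 1 and 1 in replicates 1, 2 and 3 of M2-exo. Of the 6 myeloid markers 2 were called higher, beside 3.68% of all 598 miRNAs, and 1 lower, beside 6.35%. The call of miR-21a-5p (0.55) was lost without M0-exo replicate 3 (0.32) or M2-exo replicate 3 (0.47). miR-223-3p, also called higher, had 24, 21 and 8 counts for M0-exo and 41, 38 and 28 for M2-exo. It kept its call with each library left out in turn (log2 fold change 1.38 to 1.77). Its adjusted p of 0.0582 from edgeR, with all libraries, missed 0.05. The part of these markers in the differences of the members was not tested.

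miR-128-3p was included because its seed overlaps that of miR-27 by 6 bases (CACAGU). It was counted 49, 47 and 50 times over the M0-exo libraries and 19, 27 and 14 times over the M2-exo libraries. In CPM the groups overlapped, and the log2 fold change of -0.79 (standard error 0.52) had an adjusted p of 0.502 from edgeR. With the entries of its 2 hairpins summed it was called lower (-0.91, unadjusted p of 0.0104 and adjusted p of 0.0942, both from edgeR), though a read held in both entries then counts more than once. Its direction was opposite to that of miR-27a-3p and miR-27b-3p.

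The pattern over the 6 libraries was also matched with other miRNAs. Pearson's r was taken between the log2 CPM of each miRNA and the mean log2 CPM of the members, as a description without a p. Outside the named miRNAs it was highest for miR-99a-5p (0.974), miR-30a-5p (0.965) and miR-130b-3p (0.963). miR-99a-5p was higher in M2-exo, at 6040 ± 103 CPM beside 4406 ± 155 CPM for M0-exo (SD, n = 3 each), a log2 fold change of 0.45 with an adjusted p of 3.04e-05 from edgeR. For miR-30a-5p it was 0.32 and for miR-130b-3p 0.28, with adjusted p of 0.0504 and 0.0845 from edgeR. The r of single members with that mean, of which each is a part, was 0.982 for miR-23a-3p, 0.968 for miR-23b-3p, 0.929 for miR-24-3p, 0.863 for miR-27a-3p, 0.750 for miR-27b-3p and 0.436 for miR-27a-5p. That of miR-23a-5p was -0.928. These values follow the difference between the groups and the depth of each miRNA, which the 6 libraries do not separate.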

How the data were processed

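Exosomal small RNA of RAW264.7 cells was sequenced for 6 samples (3 of M0-exo, 3 of M2-exo), grouped by their labels. The authors deposited raw counts per mature miRNA and precursor (638 entries), and RPM values that equal, to within 0.005, 1000000 times the count over the total of all entries in its library. The aligner, the counting tool and the miRNA release are not given in the sources used here, and the submitters' processing notes name mm39. The deposited RPM values were not tested further. The members and lists were chosen with earlier results of these data known.

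From the counts, 1 entry per name was kept (598 names, each above 0 in at least 1 library). Group differences were fitted using edgeR 4.0.16 under R 4.3.3 (TMM, estimateDisp, glmQLFit and glmQLFTest with installed defaults, no covariates). The estimated prior had infinite degrees of freedom, so the spread of each miRNA was replaced by a spread shared over miRNAs. Standard errors are the unshrunk log2 coefficient over the square root of F. The call threshold follows that of the study. Paralog and arm ratios used 0.5 added to each count and a two-sided exact permutation test over 20 arrangements. The planned ratio of miR-24-2-5p to miR-24-3p was not computed, and the arm ratios of mir-23a and mir-27b and the limma 3.58.1 fit over hairpins were added after values were seen. The steps were tested on simulated counts, whose criteria were changed after the initial ones were missed. Power to call a change was low near a mean of 10 counts, and the GC offset over-corrected where many miRNAs changed. Replicates varied beyond sampling noise (chi-square of 7.28 to 29.6 per degree of freedom for pairs within a group). No molecular identifiers are described, so Wilson intervals and the limit of 3 counts cover counting error only. The miRNAs named are the members, the other arms of their hairpins, miR-128-3p, the marker lists and the 3 miRNAs most alike in pattern among those with a mean of at least 10 counts. Mature sequences come from the deposited table. Of the members, other arms and miR-128-3p (10 in all), 9 have a RefSeq entry, each identical. Hairpins come from RefSeq and gene annotation from GENCODE M21, both on GRCm38. Shares and annotation were computed with Python 3.11.15 and scipy 1.17.1, and figures were drawn with matplotlib 3.10.9. Alternatives were DESeq2 1.42.0, other scaling, a filter on low counts, summed entries or paralogs, a robust prior, a GC offset, a replicate block and leaving out each library.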

Additional observations from a re-analysis of the deposited data

How the results depend on the processing

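The direction of the 6 members and of miR-23a-5p was the same in 16 of 16 alternatives (in 1 of which each miR-23-3p and miR-27-3p pair was summed), and miR-23a-5p was called in each (-1.30 to -0.90). The adjusted p of miR-23a-5p ran from 4.21e-09 with no scaling to 0.00117 with the filter on low counts, both from edgeR. miR-27b-3p was called in 11 of 16 (1 of these for the pair summed, not for its own counts), but not with no scaling (0.32), DESeq2 (0.51, unadjusted p of 0.0687) or the GC offset (0.495), the last chosen after seeing the data, and miR-27a-3p was called without the let-7 family (0.54), with the pair summed (0.51) and with the GC offset (0.52). The number of members called was 0 with no scaling and with DESeq2, 2 without the let-7 family and 2 by adjusted p alone, and 0 members had an adjusted p below 0.05 with no scaling, and 3 without the let-7 family or with a filter on low counts. Leaving out 1 library in turn gave 0.36 to 0.65 for miR-27b-3p, 0.38 to 0.55 for miR-27a-3p, 0.03 to 0.60 for miR-27a-5p, -0.63 to 0.14 for miR-27b-5p and -1.61 to 0.0879 for miR-23b-5p, and 0 to 2 members called. It gave 1 to 2 members with an adjusted p below 0.05 (1 without M0-exo replicate 3, M2-exo replicate 1 or M2-exo replicate 2, where miR-23a-3p lost it). The log2 ratio difference ran from -0.29 to 0.11 for miR-27a-3p to miR-27b-3p and from -0.54 to 0.10 for miR-27a-5p to miR-27a-3p, and from -1.27 to -0.51 for miR-27b-5p to miR-27b-3p. That of miR-23a-5p to miR-23a-3p ran from -1.65 to -1.32, and its adjusted p from limma from 0.0649 to 0.145 over 9 alternatives. Among all miRNAs, 33 instead of 53 had an adjusted p below 0.05 without M0-exo replicate 2. The causes were not tested. Residuals of same-numbered replicates correlated at -0.0324, 0.0352 and -0.0584 (241 miRNAs), and the numbers were not taken as pairs. With a replicate block 56 miRNAs were called instead of 60, the log2 fold change of miR-24-3p was 0.41 and that of miR-23a-5p -1.09, and no call of a member or of miR-23a-5p changed. Among the members and the other arms of their hairpins, counts were lowest for miR-23b-5p, with at most 15 in a library.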

Other observations

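The values below were chosen after they were seen. The hairpins of miR-24 have annotated miRNAs on the opposite strand. miR-3074-1-3p had 7, 0 and 0 counts over the M0-exo replicates and 0, 3 and 5 over those of M2-exo. miR-3074-5p, with 0 counts throughout M0-exo, had 3, 1 and 0 over the M2-exo replicates, in the entries of both of its hairpins. Most of these counts are at or near the limit of 3, and no fold is given.

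By the size of its arm difference, mir-23a ranked 5 of 44 hairpins, and the 4 above it varied more between replicates. Those were mir-877 (-3.73, standard error 1.64), mir-712 (-2.62, standard error 0.81), mir-322 (-2.49, standard error 1.39) and mir-326 (-1.66, standard error 0.65). For mir-23a the standard error was 0.28.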
